A study of Jaculus jaculus with 29 samples.

Results

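The genes described here belong to the transport route between the endoplasmic reticulum (ER) and the Golgi apparatus, measured in the supraoptic nucleus of the lesser Egyptian jerboa, Jaculus jaculus. Members were taken from 50 listed gene symbols wherever the authors' deposited table for dehydration carried the name in its gene name column, in upper or lower case. That gave 32 members of the 29170 genes in the count table. Another 17 listed genes had no name there and were identified by their position in the RefSeq annotation of the same assembly; their values are given beside the members and are not counted among them. Tmed7 matched no gene. All 49 identified genes passed the filter on low counts, so no member was lost to it.

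The study exposed a desert rodent to osmotic stress and let a second group of animals recover. The Rehydrated group (n = 9, of which 5 male and 4 female) had water restricted for 7 days and then drank freely for 3 days. The Dehydrated group (n = 10, 4 male and 6 female) had water restricted for 11 days. The Control group (n = 10, 5 male and 5 female) had water throughout. Animals lived alone in their cages at 25 °C, with a 12-hour light period and dry food, and polyadenylated RNA from 12 punches of 1 mm per brain was sequenced. No strain, age or genetic change is given in the labels.

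Proteins meant for secretion enter the ER through the SEC61 channel, leave it in vesicles with a COPII coat, and reach the Golgi through tethers and SNARE proteins. Vesicles with a COPI coat carry escaped ER proteins and cargo receptors back, with KDEL receptors recognising the resident chaperones. In the supraoptic nucleus, magnocellular neurons send the vasopressin and oxytocin precursors through this route in large amounts, and water deprivation is a classical stimulus for vasopressin release in rodents.

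Total counts per library ran over 14235024 to 18516535 in Rehydrated, 14084542 to 18856620 in Dehydrated and 10797577 to 17834438 in Control animals. The median member had an average of 1274 counts per library, and the lowest, Sec16b, had 29.97. The summed level of 12 magnocellular neuron markers ran over 3879 to 9308 CPM (counts per 1e6, on scaled library totals) in Rehydrated, 6144 to 12052 CPM in Dehydrated and 4013 to 7219 CPM in Control libraries. As a set these markers thus gave signal in every library. The sum includes genes that rose in Dehydrated against Control, such as Avp and Pdyn. Avp alone measured 3293 ± 1198 CPM in Dehydrated and 934 ± 597 CPM in Control libraries, so the sum is no measure of magnocellular content alone. The punches also held other cells: 7 measured oligodendrocyte markers summed to 1136 to 8122 CPM in Rehydrated, 2348 to 6270 CPM in Dehydrated and 2556 to 6512 CPM in Control libraries. One library, Control M01, stood apart on the first principal component of all tested genes, at 121 against -12.6 to 7.63 in the other libraries. Its 8 measured microglia markers summed to 584 CPM, while the largest sum in a Rehydrated or Dehydrated library was 275 CPM. Values against Control printed below are also given without it where leaving it out changed their sign or moved them by more than 1.5 times. As these are bulk samples, fewer cells of a type and less RNA per cell cannot be told apart.

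No difference between the treatments passed the threshold among the secretory transport genes. None of the 32 members passed an adjusted p of 0.05 in Rehydrated against Control, in Dehydrated against Control or in Rehydrated against Dehydrated animals with edgeR's quasi-likelihood test. Over all 17558 genes tested, the shares that passed were 0% in Rehydrated against Control, 0.125% in Dehydrated against Control and 0.0228% in Rehydrated against Dehydrated, so a count of 0 among 32 is close to that background. DESeq2 called no member either, while it called 0.114%, 0.228% and 0.074% of all genes in the same 3 comparisons. At an unadjusted p below 0.05 there were 3 members in Rehydrated against Control, beside 7.48% of all genes. There were 5 members in Dehydrated against Control, beside 6.37% of all genes, and 1 member in Rehydrated against Dehydrated, beside 3.88%.

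For the RNA of whole punches, the differences that these data leave possible were small for most members. A change confined to a single cell type was not measured. In Dehydrated against Control, the 95% interval of the log2 fold change lay within -0.5 and 0.5, a change of up to 41.4%, for 30 of 32 members; Sec16b and Sec24d were the exceptions. It lay within -0.25 and 0.25 for 21 members, and for 28 members without Control M01. In Rehydrated against Control the interval lay within -0.5 and 0.5 for 31 members and within -0.25 and 0.25 for 23, or 28 without Control M01. The median standard error of a member's log2 fold change in Dehydrated against Control was 0.069, against 0.12 for all tested genes. All 32 intervals lay within a doubling or halving in each comparison.

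**Figure D1:**
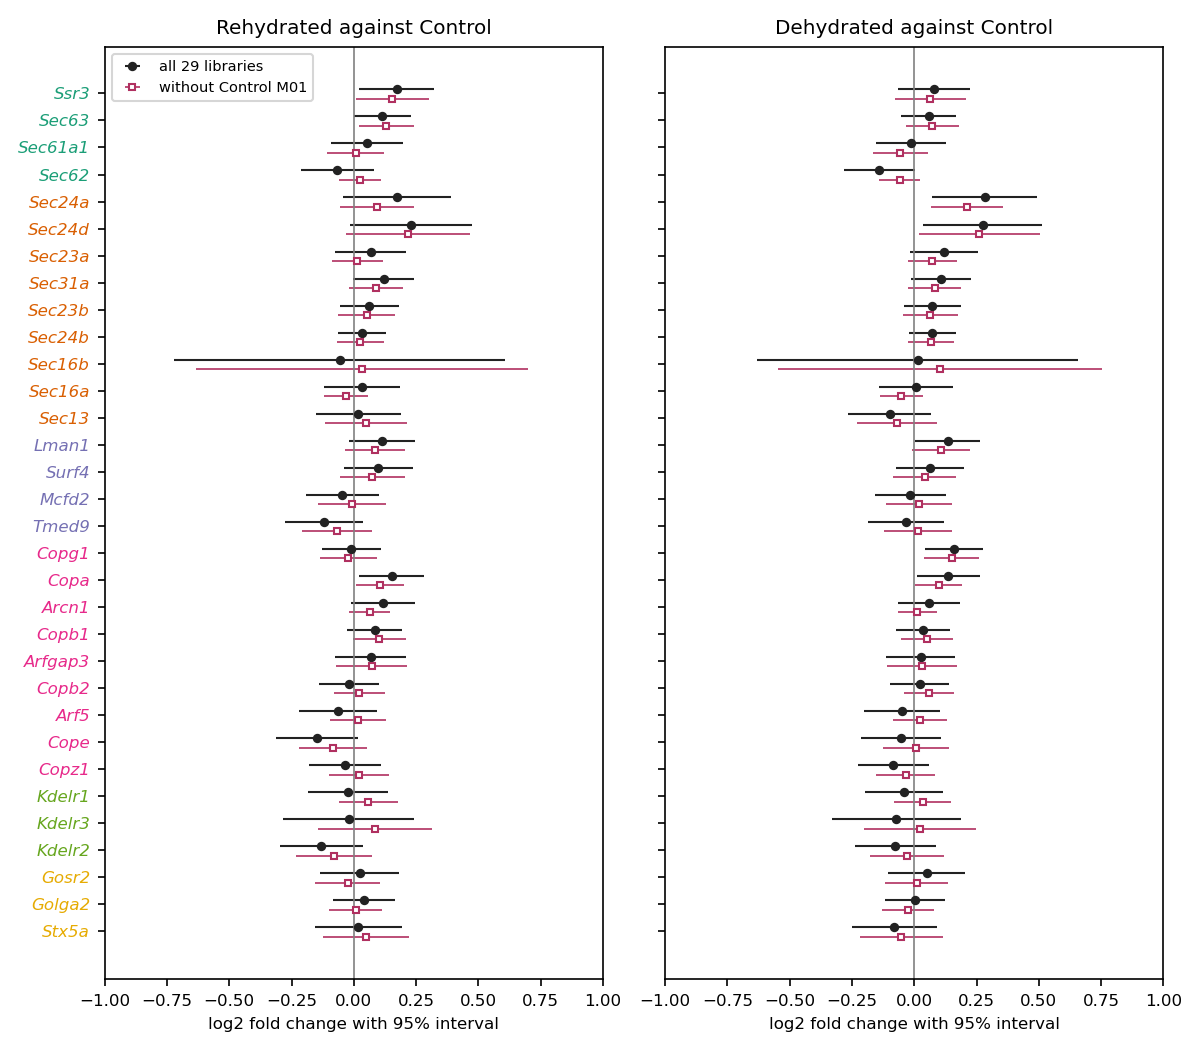
Log2 fold change (x axis) of each of the 32 members (y axis, names coloured by role, from ER translocation at the top to SNAREs and tether at the bottom) in Rehydrated against Control and in Dehydrated against Control, with bars for the 95% interval. Black circles use all 29 libraries and open squares leave out Control M01; in Dehydrated against Control the bar of Sec16b runs over -0.63 to 0.66, that of Sec24d over 0.03 to 0.51 and that of Sec24a over 0.07 to 0.49, and the bars of 30 of 32 members lie within -0.5 and 0.5.

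As a whole the members differed between the 3 groups in mean share of the RNA by less than the larger SD. They held 0.292 ± 0.011% of all counts in Rehydrated (SD, n = 9), 0.293 ± 0.006% in Dehydrated (SD, n = 10) and 0.284 ± 0.010% in Control libraries (SD, n = 10). Their summed level was 2919 ± 71.4 CPM in Rehydrated, 2929 ± 53.1 CPM in Dehydrated and 2854 ± 38.9 CPM in Control libraries. The ranges of the groups overlapped. The Dehydrated and Control means of this sum lay further apart than the larger of their SDs. The lowest Dehydrated sum, 2853 CPM, was above the Control median of 2850 CPM. The difference in summed level was not tested. In Dehydrated against Control 20 members had a positive and 12 a negative log2 fold change, with a median of 0.02, while 49.2% of all tested genes were positive. In Rehydrated against Control it was again 20 positive and 12 negative, with a median of 0.03, while 50.8% of all tested genes were positive. Both comparisons use the same Control libraries. In Rehydrated against Dehydrated 17 were positive and 15 negative, with a median of 0.01, while 51.4% of all tested genes were positive. Without Control M01, 25 members were positive in Rehydrated against Control, beside 52.2% of all tested genes. In Dehydrated against Control 24 members were then positive, beside 50.9% of all tested genes.

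Levels per exon length, in CPM per kilobase, set the members in order within Control animals. The highest were Cope (86.9 ± 13.2), which encodes epsilon-COP of the COPI coat, the small GTPase gene Arf5 (86.6 ± 16.02), the translocation factor gene Sec62 (85.2 ± 16.1), Copg1 (76.2 ± 6.72), which encodes gamma-COP, and Arcn1 (59.4 ± 7.83), which encodes delta-COP (SD, n = 10 each). The first 4 of these did not differ beyond their spread, while Copg1 stood above Arcn1 by 16.8 CPM per kilobase, more than the larger SD of the pair. The lowest were Kdelr3 (13.4 ± 3.64), the SNARE gene Stx5a (13.2 ± 1.55), Sec24a (5.98 ± 1.26), Sec24d (3.33 ± 0.561) and Sec16b (0.450 ± 0.208). In 25 of the 31 neighbouring pairs of the order the gap was within the larger SD; from Stx5a downward each step was larger than it. Of the 32 members, 29 lay above the median level per length of all tested genes. Of the genes identified by position, Arf1 (154 ± 14.2), Tmed10 (118 ± 20.5) and Arf4 (107 ± 12.7) lay above every member.

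**Figure D2:**
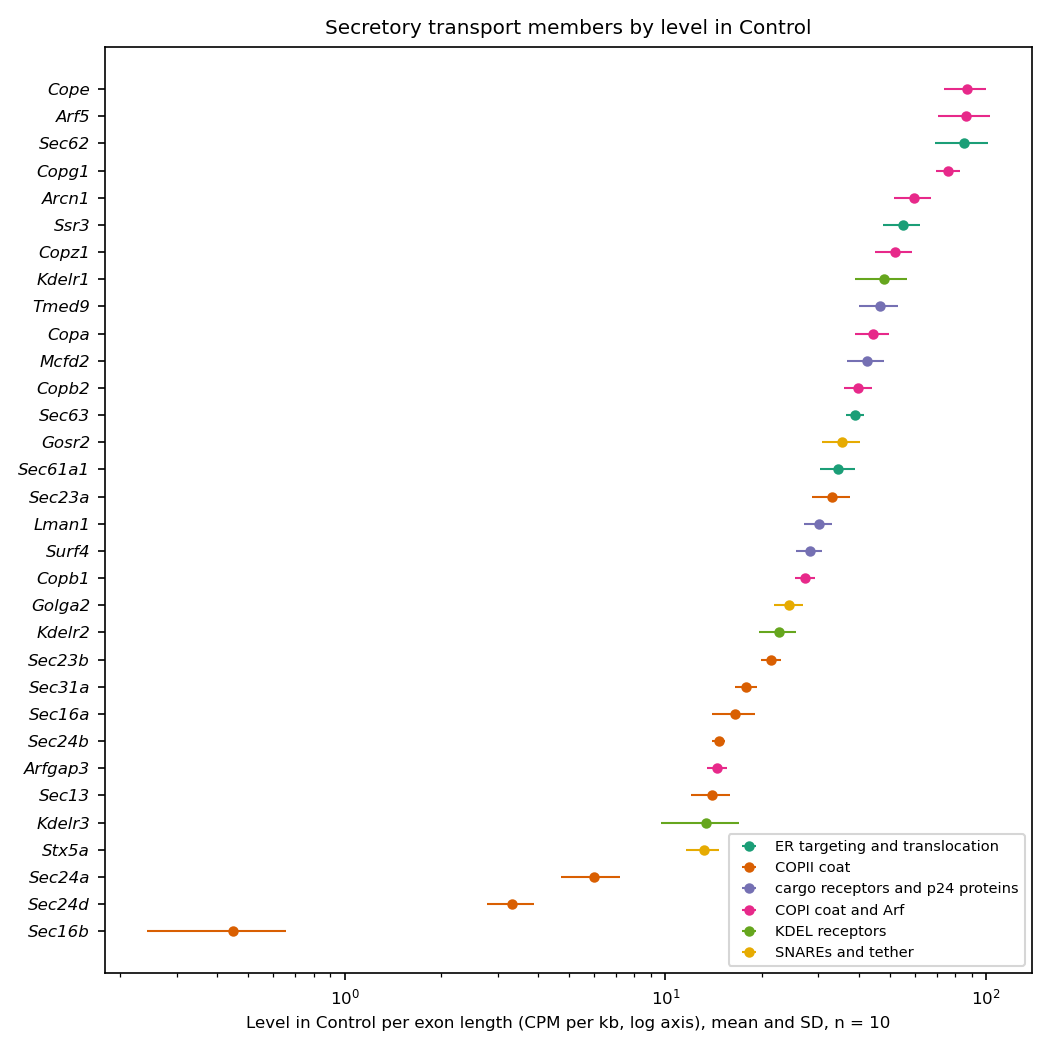
Level of each member in Control animals per exon length (x axis, CPM per kilobase, log axis; points are means and bars SDs of 10 libraries), ordered from the highest at the top and coloured by role. COPI genes fill most of the upper end, and the COPII genes Sec24a, Sec24d and Sec16b lie at the lower end, at 5.98, 3.33 and 0.450.

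Among the genes for entry into the ER, Sec62, Sec63, Ssr3 and Sec61a1 were members. Sec62 and Sec63 encode membrane partners of the SEC61 channel, Sec61a1 the channel itself, and Ssr3 a subunit of the translocon-associated protein complex. Sec62 (mJacJac1 chr11:80642226-80676833, plus strand) measured 176 to 199 CPM in Rehydrated libraries with a median of 186, 170 to 182 CPM in Dehydrated libraries with a median of 179, and 167 to 296 CPM in Control libraries with a median of 185. All 10 Dehydrated libraries lay below the Control median and inside the Control range. The log2 fold change in Dehydrated against Control was -0.14 (SE 0.069, adjusted p = 0.774), and -0.06 (adjusted p = 0.939) without Control M01, which held the highest value. Sec62 was the 1 member with all Dehydrated libraries below the Control median, as were 1.89% of all tested genes.

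Ssr3 (chr11:63901250-63915763, minus strand) measured 96.6 to 128 CPM in Rehydrated libraries with a median of 114, 92.0 to 118 CPM in Dehydrated libraries with a median of 108, and 80.8 to 121 CPM in Control libraries with a median of 103. The groups overlapped over most of their ranges. In Rehydrated against Control its log2 fold change was 0.17 (SE 0.073, adjusted p = 0.609), with 8 of 9 Rehydrated libraries above the Control median. For counts short of all libraries, here and below, the share over all tested genes is not given, so they single out no gene. Sec63 (chr7:39138037-39217045, plus strand) measured 127 to 172 CPM in Rehydrated libraries with a median of 139, 121 to 154 CPM in Dehydrated libraries with a median of 136, and 114 to 141 CPM in Control libraries with a median of 132. In Rehydrated against Control its log2 fold change was 0.11 (SE 0.055, adjusted p = 0.658), with 8 of 9 Rehydrated libraries above the Control median; the highest value belonged to Rehydrated M04. Sec61a1 measured 92.3 ± 8.02 CPM in Rehydrated (SD, n = 9), 88.6 ± 6.78 CPM in Dehydrated (SD, n = 10) and 89.2 ± 11.2 CPM in Control libraries (SD, n = 10), and its log2 fold change in Dehydrated against Control was -0.01 (adjusted p = 0.971), and -0.06 (adjusted p = 0.978) without Control M01. Of the genes identified by position, Ssr1, another subunit gene of the translocon-associated complex, measured 73.8 ± 7.57 CPM in Rehydrated (SD, n = 9), 85.3 ± 7.49 CPM in Dehydrated (SD, n = 10) and 80.0 ± 11.7 CPM in Control libraries (SD, n = 10). Its log2 fold change in Rehydrated against Dehydrated was -0.22 (SE 0.077, adjusted p = 1.00), and without Control M01 it was -0.21 (adjusted p = 0.592).

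No COPII coat gene passed the threshold after dehydration, and the sign of the values varied with the set of genes. Of 9 COPII members, 8 had a positive log2 fold change in Dehydrated against Control and the median was 0.07, against 0.00 for all tested genes. Without Control M01 it was 7 of 9, with a median of 0.07, beside 8 of 9 COPI and Arf members and 4 of 4 cargo receptor members. The GTPase genes that start the coat, Sar1a and Sar1b, identified by position, had negative values, -0.03 (adjusted p = 0.922) and -0.11 (adjusted p = 0.792), and -0.06 and -0.11 without Control M01. Of 10 other COPII genes, 4 were positive and 6 negative, with a median of -0.01; without Control M01 they were 9 and 1, with a median of 0.04. The coat forms when SEC16 marks the exit site, SEC23 and SEC24 bind as the inner layer and SEC13 and SEC31 form the outer cage; SEC24 is the subunit that binds cargo.

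Sec24a (chr6:5704735-5778851, plus strand) had the largest positive log2 fold change of all members in Dehydrated against Control. It measured 22.96 to 32.4 CPM in Rehydrated libraries with a median of 29.2, 26.4 to 36.3 CPM in Dehydrated libraries with a median of 31.4, and 12.0 to 31.4 CPM in Control libraries with a median of 25.7. All 10 Dehydrated libraries lay above the Control median, which was the case for 1.96% of all tested genes, while the ranges overlapped between 26.4 and 31.4 CPM. The log2 fold change in Dehydrated against Control was 0.28 (SE 0.10, adjusted p = 0.633), or 21.6% with a 95% interval of 5.11% to 40.7%. The lowest Control value belonged to Control M01; without it the log2 fold change was 0.21 (SE 0.070, adjusted p = 0.530). The authors' deposited table gives a log2 fold change of 0.21 and an adjusted p of 0.312 for the same gene.

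Sec24d (chr2:84161505-84280867, plus strand) measured 12.7 to 25.5 CPM in Rehydrated libraries with a median of 14.04, 12.99 to 18.3 CPM in Dehydrated libraries with a median of 15.7, and 8.45 to 15.4 CPM in Control libraries with a median of 13.1. Rehydrated F05 held the 25.5 CPM and the other 8 Rehydrated libraries lay at 15.3 CPM or below. The log2 fold change in Rehydrated against Control was 0.23 (SE 0.12, adjusted p = 0.680) with all libraries and 0.10 (adjusted p = 0.802) without Rehydrated F05. In Dehydrated against Control it was 0.27 (SE 0.12, adjusted p = 0.720), and 9 of 10 Dehydrated libraries lay above the Control median. Sec24b measured 68.8 ± 1.90 CPM in Rehydrated (SD, n = 9), 70.4 ± 5.49 CPM in Dehydrated (SD, n = 10) and 67.1 ± 3.16 CPM in Control libraries (SD, n = 10). Its log2 fold change in Dehydrated against Control was 0.07 (SE 0.046, adjusted p = 0.798). Sec24c, identified by position, measured 124 ± 4.00 CPM in Rehydrated (SD, n = 9), 128 ± 7.46 CPM in Dehydrated (SD, n = 10) and 119 ± 8.501 CPM in Control libraries (SD, n = 10), with a log2 fold change of 0.09 (SE 0.045, adjusted p = 0.774) in Dehydrated against Control.

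**Figure D3:**
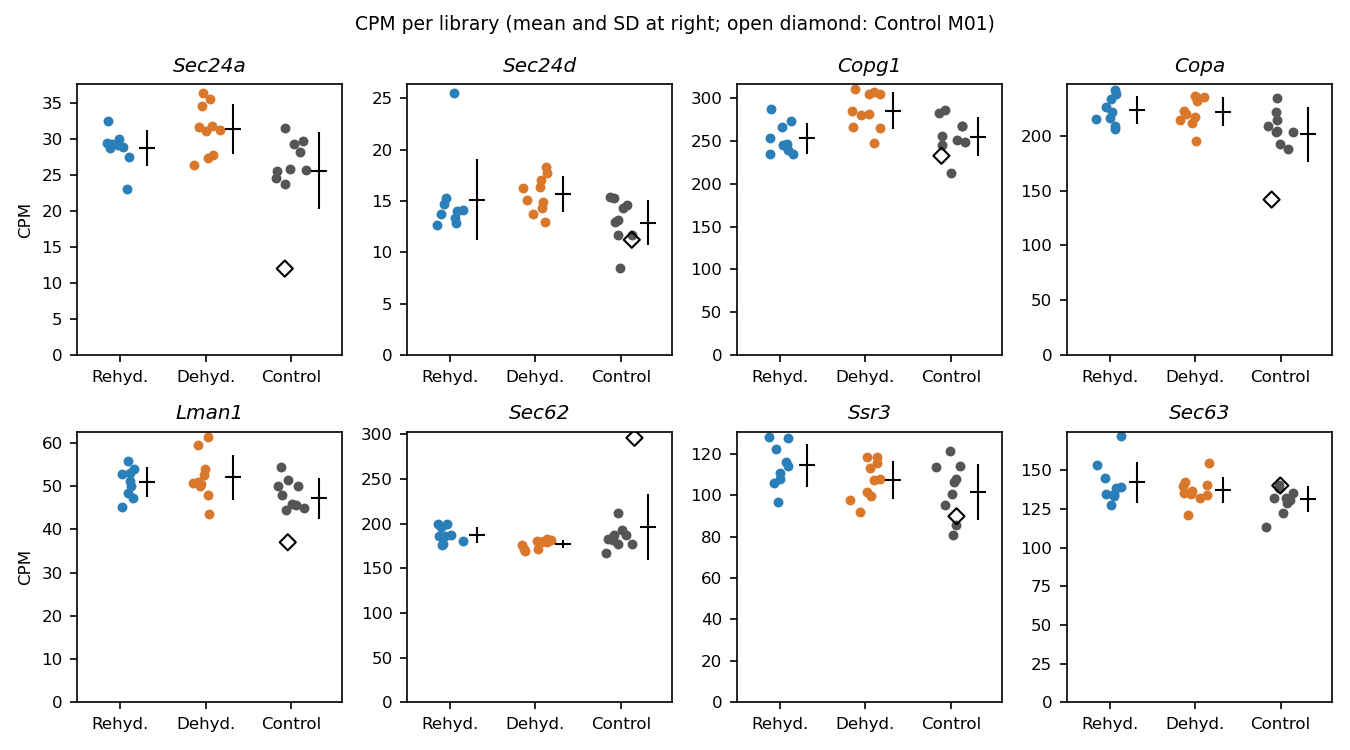
CPM of 8 members in each library (y axes from 0; Rehydrated in blue, Dehydrated in orange, Control in grey; the bar at the right of each group is its mean and SD). The open diamond is Control M01, which is the lowest Control value of Sec24a, Copa and Lman1, at 12.0, 142 and 37.02 CPM, and the highest of Sec62, at 296 CPM; the groups overlap in every panel.

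The other COPII members cover the cage, the inner layer and the exit sites. Sec31a (chr2:115897361-115990967, plus strand), for the outer cage, measured 75.4 to 101 CPM in Rehydrated libraries with a median of 84.1, 77.0 to 96.8 CPM in Dehydrated libraries with a median of 84.6, and 63.8 to 83.9 CPM in Control libraries with a median of 81.3. Its log2 fold change was 0.12 (SE 0.060, adjusted p = 0.671) in Rehydrated against Control and 0.11 (SE 0.059, adjusted p = 0.786) in Dehydrated against Control. Sec23a had a log2 fold change of 0.12 (SE 0.067, adjusted p = 0.789) and Sec23b of 0.07 (SE 0.056, adjusted p = 0.807) in Dehydrated against Control. Without Control M01 the value of Sec23a was 0.07. Sec13, also of the cage, was the COPII member with a negative value in Dehydrated against Control, -0.10 (SE 0.081, adjusted p = 0.814), and in Rehydrated against Dehydrated its log2 fold change was 0.12 (SE 0.083, adjusted p = 1.00). Sec16a measured 141 ± 7.52 CPM in Rehydrated (SD, n = 9), 138 ± 6.95 CPM in Dehydrated (SD, n = 10) and 138 ± 20.9 CPM in Control libraries (SD, n = 10). Sec16b was at 1.86 ± 0.926 CPM in Rehydrated (SD, n = 9), 1.93 ± 1.02 CPM in Dehydrated (SD, n = 10) and 1.97 ± 0.912 CPM in Control libraries (SD, n = 10), and its 95% interval in Dehydrated against Control, -0.63 to 0.66, was the widest of the members.

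The share of each COPII paralog differed between the groups by less than the larger SD. Per exon length, Sec24c made up 50.9 ± 1.24% of the summed SEC24 level in Rehydrated (SD, n = 9), 50.5 ± 2.97% in Dehydrated (SD, n = 10) and 51.6 ± 2.68% in Control libraries (SD, n = 10). Sec24b followed with 28.8 ± 1.11%, 28.4 ± 2.15% and 29.7 ± 2.07% in Rehydrated, Dehydrated and Control libraries. Sec24a held 12.8 ± 0.972% in Rehydrated, 13.5 ± 1.32% in Dehydrated and 12.0 ± 2.19% in Control libraries. Sec24d was the least, with 7.46 ± 1.66% in Rehydrated, 7.49 ± 0.778% in Dehydrated and 6.73 ± 1.05% in Control libraries. Sec23a made up 60.9 ± 2.83% of the SEC23 pair in Rehydrated, 61.4 ± 2.81% in Dehydrated and 60.5 ± 2.76% in Control libraries. These shares compare genes through their annotated exon lengths, so errors in the annotated ends of a gene would move them.

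Ratios of CPM between paralogs were compared by exact permutation tests over libraries, 10 pairs in each of Rehydrated against Control and Dehydrated against Control, and none of the 20 passed after Benjamini-Hochberg adjustment. The smallest p was that of the log2 ratio of Sec24b to Sec24a, which was 1.16 ± 0.16 in Dehydrated and 1.41 ± 0.37 in Control libraries (SD, n = 10 each). The difference was -0.25, with a two-sided exact permutation p of 0.0316 and an adjusted p of 0.632. Control M01 had the highest ratio, 2.38; without it the difference was -0.15 (exact permutation p = 0.0633, adjusted p = 0.919).

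**Figure D4:**
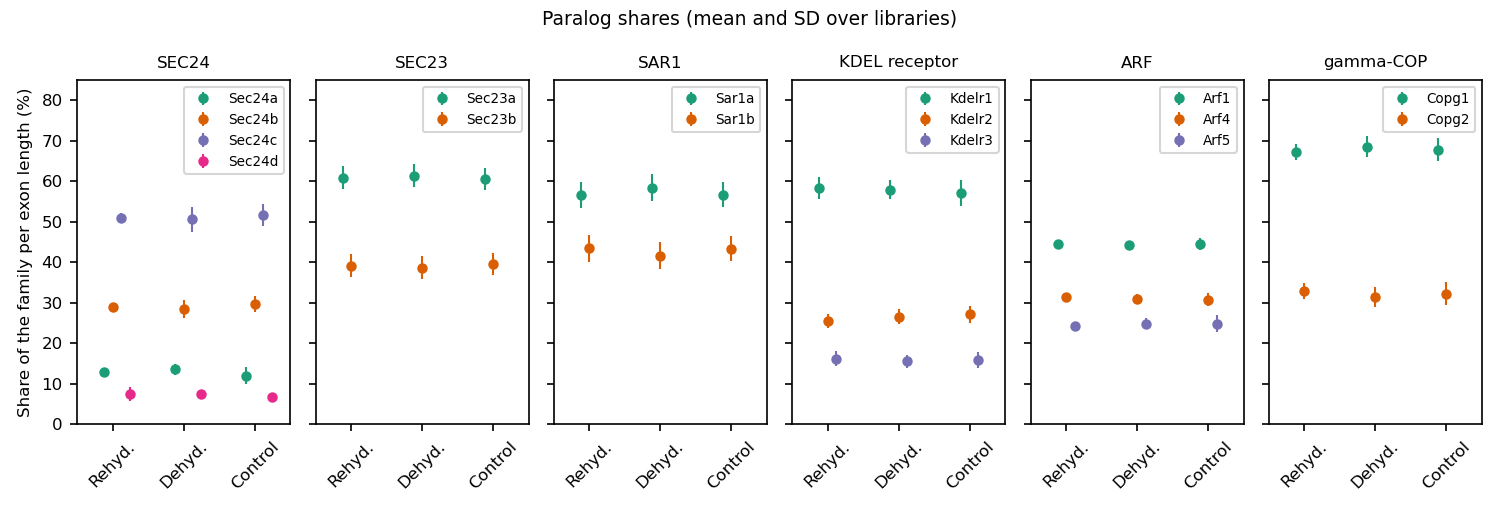
Share of each paralog in the summed level of its family per exon length (y axis, %) in Rehydrated, Dehydrated and Control libraries; points are means and bars SDs over 9, 10 and 10 libraries. The order of the paralogs is the same in the 3 groups in all 6 families, with Sec24c, Sec23a, Sar1a, Kdelr1, Arf1 and Copg1 as the largest share.

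Cargo receptors collect soluble proteins for COPII vesicles. Lman1 (chr15:4713819-4731743, minus strand), the lectin ERGIC-53, measured 45.2 to 55.8 CPM in Rehydrated libraries with a median of 51.2, 43.5 to 61.4 CPM in Dehydrated libraries with a median of 50.8, and 37.02 to 54.3 CPM in Control libraries with a median of 46.9. In Dehydrated against Control 9 of 10 libraries lay above the Control median, and the log2 fold change was 0.13 (SE 0.063, adjusted p = 0.747), against 0.11 (adjusted p = 0.874) without Control M01. Its soluble partner Mcfd2 measured 67.7 ± 5.56 CPM in Rehydrated (SD, n = 9), 69.3 ± 5.93 CPM in Dehydrated (SD, n = 10) and 70.0 ± 9.16 CPM in Control libraries (SD, n = 10). Surf4, a receptor for soluble cargo in the early secretory route, had a log2 fold change of 0.06 (SE 0.066, adjusted p = 0.844) in Dehydrated against Control, and 0.04 (adjusted p = 0.990) without Control M01. Tmed9, a p24 family member, measured 76.0 ± 9.52 CPM in Rehydrated (SD, n = 9), 80.2 ± 5.22 CPM in Dehydrated (SD, n = 10) and 82.5 ± 11.4 CPM in Control libraries (SD, n = 10). The lowest Rehydrated value of Tmed9, 53.7 CPM, belonged to Rehydrated M04, and in Rehydrated against Dehydrated its log2 fold change was -0.09 (SE 0.077, adjusted p = 1.00).

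In the COPI coat, Copg1 (chr6:36499224-36527819, plus strand) had the smallest p of all members in 2 of the 3 comparisons of treatment. It measured 234 to 287 CPM in Rehydrated libraries with a median of 246, 248 to 311 CPM in Dehydrated libraries with a median of 283, and 212 to 286 CPM in Control libraries with a median of 253. Of the 10 Dehydrated libraries, 9 lay above the Control median, while 3 of 9 Rehydrated libraries did, and the ranges of the groups overlapped. The log2 fold change was -0.01 (SE 0.058, adjusted p = 0.971) in Rehydrated against Control, 0.16 (SE 0.056, adjusted p = 0.587) in Dehydrated against Control and -0.17 (SE 0.058, adjusted p = 1.00) in Rehydrated against Dehydrated. Without Control M01 the value in Rehydrated against Control was -0.02 (adjusted p = 0.954), and the adjusted p in Rehydrated against Dehydrated was 0.608.

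Copa (chr1:315926004-315995148, plus strand), for alpha-COP, measured 207 to 242 CPM in Rehydrated libraries with a median of 222, 195 to 236 CPM in Dehydrated libraries with a median of 221, and 142 to 234 CPM in Control libraries with a median of 204. All 9 Rehydrated libraries lay above the Control median, as did those of 1.72% of all tested genes. The log2 fold change was 0.15 (SE 0.063, adjusted p = 0.598) in Rehydrated against Control and 0.14 (SE 0.062, adjusted p = 0.744) in Dehydrated against Control. Control M01 held the lowest value; without it these were 0.11 (adjusted p = 0.570) and 0.10 (adjusted p = 0.849). The values of Cope, Arcn1 and Arf5 also moved with that library. Cope had a log2 fold change of -0.15 (SE 0.080, adjusted p = 0.688) in Rehydrated against Control, and -0.08 (adjusted p = 0.795) without it. Arcn1 had 0.12 (SE 0.062, adjusted p = 0.689) in Rehydrated against Control, and 0.06 (adjusted p = 0.711) without it. Arf5 had -0.05 (SE 0.075, adjusted p = 0.885) in Dehydrated against Control, and 0.02 (adjusted p = 0.990) without it. Copb1, Copb2, Copz1 and Arfgap3, for beta-COP, beta'-COP, zeta-COP and a GTPase activator of Arf1, had log2 fold changes between -0.09 and 0.04 in Dehydrated against Control, and between -0.03 and 0.06 without that library.

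The 3 KDEL receptor genes, whose products return chaperones to the ER, had negative log2 fold changes in Dehydrated against Control with all libraries, with a median of -0.07. Without Control M01 the median was 0.02 and 2 of the 3 were positive, and none passed the adjusted threshold in either case. Kdelr1 measured 82.2 ± 7.67 CPM in Rehydrated (SD, n = 9), 80.9 ± 4.10 CPM in Dehydrated (SD, n = 10) and 83.6 ± 15.3 CPM in Control libraries (SD, n = 10). Per exon length it made up 58.3 ± 2.67% of the family in Rehydrated, 57.9 ± 2.36% in Dehydrated and 57.1 ± 3.16% in Control libraries. Kdelr3 (chr6:156044106-156057158, plus strand) measured 14.4 to 26.8 CPM in Rehydrated libraries with a median of 18.7, 15.1 to 23.8 CPM in Dehydrated libraries with a median of 18.9, and 15.4 to 34.3 CPM in Control libraries with a median of 19.1. The 34.3 CPM belonged to Control M01.

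Fusion with the Golgi rests on SNARE proteins and tethers. The SNARE gene Stx5a measured 23.8 to 33.1 CPM in Rehydrated libraries with a median of 29.7, 21.9 to 34.3 CPM in Dehydrated libraries with a median of 27.6, and 23.2 to 33.8 CPM in Control libraries with a median of 29.5. The 3 ranges were nearly the same, and the log2 fold change was -0.08 (SE 0.083, adjusted p = 0.843) in Dehydrated against Control, or -0.05 (adjusted p = 0.990) without Control M01, and 0.10 (SE 0.085, adjusted p = 1.00) in Rehydrated against Dehydrated. Golga2, for the tether GM130, measured 108 ± 8.91 CPM in Rehydrated (SD, n = 9), 105 ± 6.57 CPM in Dehydrated (SD, n = 10) and 105 ± 10.8 CPM in Control libraries (SD, n = 10). Gosr2, for another SNARE, measured 62.1 ± 6.09 CPM in Rehydrated (SD, n = 9), 63.8 ± 5.53 CPM in Dehydrated (SD, n = 10) and 61.2 ± 8.19 CPM in Control libraries (SD, n = 10).

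The spread of the members among Control libraries was smaller without Control M01. The median coefficient of variation of the members was 9.11% in Rehydrated, 7.57% in Dehydrated and 13.1% in Control libraries, and 7.50% in Control without Control M01; over all tested genes it was 15.7%, 13.9%, 22.8% and 15.9% in the same order. Control M01 was the highest Control library for 12 members and the lowest for 11. The 12 had a median exon length of 1761 bases and the 11 a median of 3712 bases. Across the 32 members, the log2 difference of Control M01 from the other Control libraries had a Spearman correlation of -0.49 with exon length. Across all 17558 tested genes it was -0.35. Set against the rest of their own groups, the other libraries ran over -0.65 (Rehydrated M06) to 0.58 (Rehydrated M04) across the members. Across all tested genes they ran over -0.09 (Rehydrated M06) to 0.25 (Control F06). For the other Control libraries, the mean they were set against includes Control M01, which enters their values. Genes share the library, so these are descriptions. The log2 fold changes in Dehydrated against Control had a Spearman correlation with exon length of 0.50 across the 32 members, 0.38 without Control M01 and 0.22 across all tested genes. The part of exon length in the positive values of the long COPII genes was not tested. In the Rehydrated group, F05 was the highest library for 11 members and M04 the lowest for 10.

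**Figure D5:**
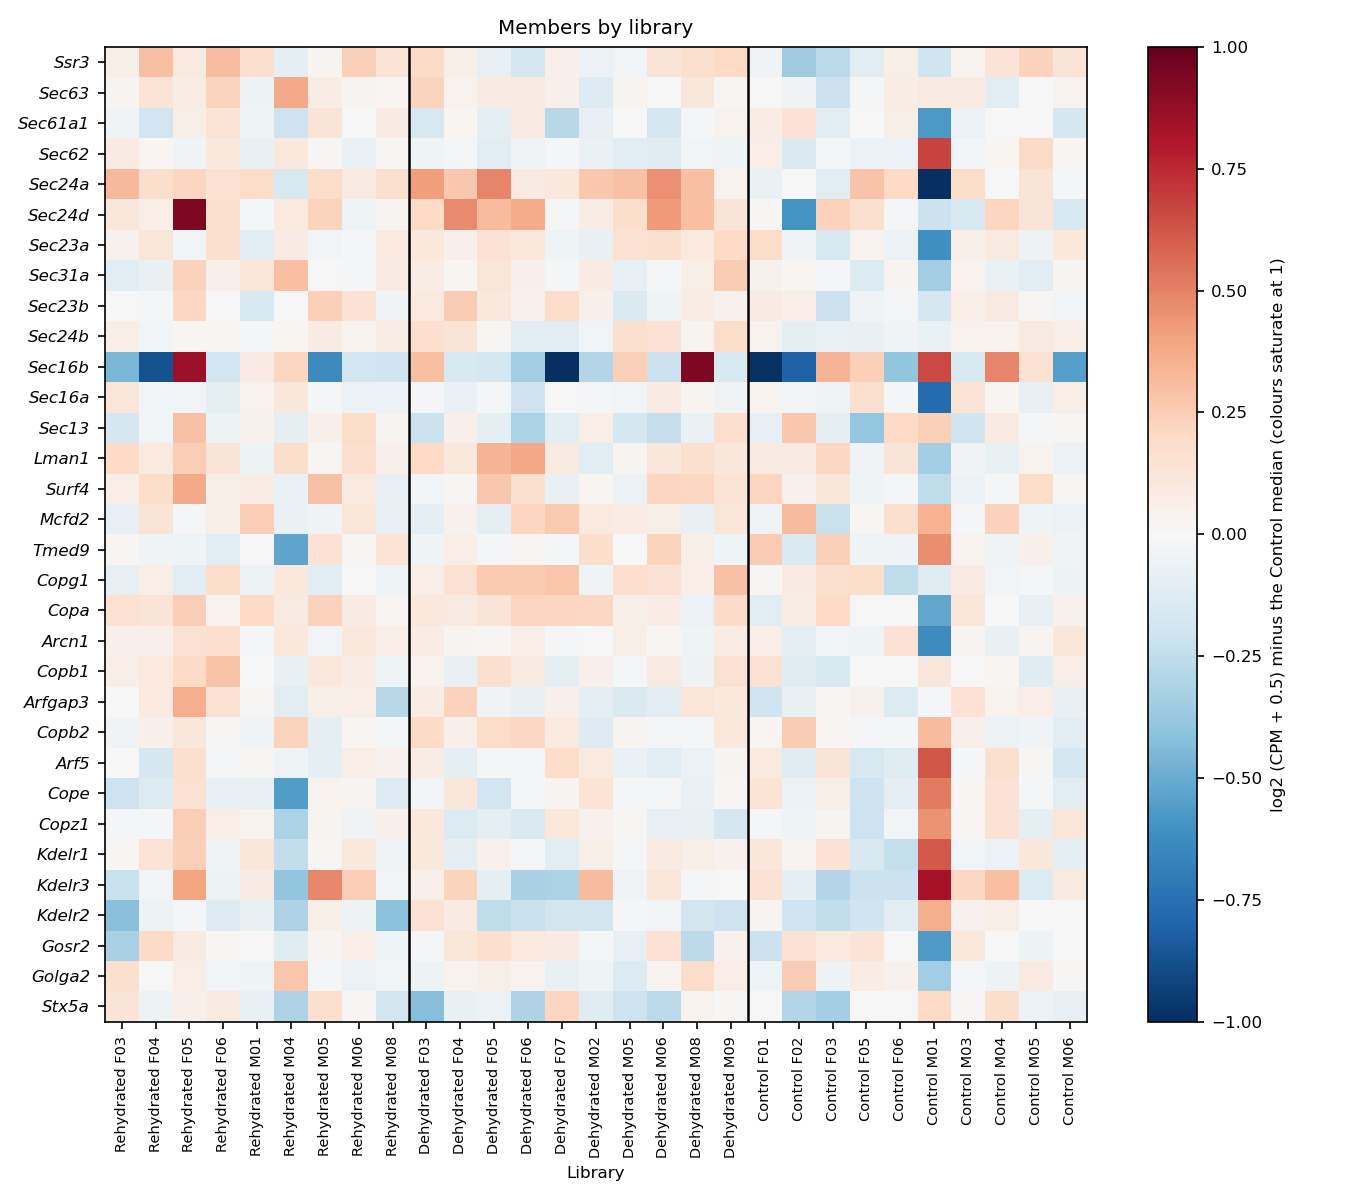
Log2 level of each member (rows, by role) in each library (columns, Rehydrated, then Dehydrated, then Control, separated by black lines) minus the Control median; the colours saturate at a difference of 1. Control M01 differs from the other columns in both directions, by -1.14 to 0.85 from the mean of the other Control libraries, and Sec16b, the member with the lowest counts, is the most variable row.

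Males and females did not differ beyond the threshold in any member. None of 32 passed in Male against Female animals, where 0.0342% of all tested genes did, and none had an unadjusted p below 0.05, beside 3.87% of all tested genes. The smallest p-values were those of Lman1, with a log2 fold change of -0.09 (SE 0.052, adjusted p = 0.993), Sec16b, with 0.41 (SE 0.26, adjusted p = 0.993), and Sec23b, with -0.07 (SE 0.046, adjusted p = 0.993). The difference between the sexes in the Dehydrated against Control change was also tested, and 0 of 32 members passed, beside 0% of all tested genes; 2 members had an unadjusted p below 0.05, beside 6.05% of all tested genes. The smallest p was that of Copz1, whose log2 change in males was lower by 0.29 than in females (value -0.29, SE 0.13, adjusted p = 0.817). Control M01 is one of 5 male Control libraries and enters that value.

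Other genes of the same route, from lists beside the members, likewise gave no call. Their signs in Dehydrated against Control were more evenly split than those of the members. Of 88 tested, with 14 for ER translocation, 10 for COPII, 16 for cargo receptors and the intermediate compartment, 9 for COPI and Arf and 39 for SNAREs and tethers, none passed in any of the 3 comparisons. In Dehydrated against Control 45 were positive and 43 negative, with a median of 0.00; without Control M01 it was 54 positive and 34 negative, with a median of 0.01. The values with the smallest p were those of Trappc10, a tether subunit gene, at 0.15 (SE 0.071, adjusted p = 0.747), and Cnih4, a cargo receptor gene, at -0.31 (SE 0.14, adjusted p = 0.762); without Control M01 they were 0.10 (adjusted p = 0.799) and -0.20 (adjusted p = 0.929). Of 10 regulators of ER capacity, none passed; the transcription factor gene Xbp1 had a log2 fold change of -0.10 (SE 0.096, adjusted p = 0.834), the ER stress kinase gene Eif2ak3 of -0.07 (SE 0.069, adjusted p = 0.843) and Creb3l1, a membrane-bound transcription factor gene, of 0.08 (SE 0.094, adjusted p = 0.851). Without Control M01 Eif2ak3 was at -0.11 (adjusted p = 0.871) and Creb3l1 at 0.14 (adjusted p = 0.923).

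The secreted cargo was listed apart from the machinery. Of 14 genes for secreted peptides and their processing, 3 rose in Dehydrated against Control, beside 0.125% of all tested genes that passed in either direction, and 10 of the 14 were positive and 4 negative. Without Control M01 it was 2 of 14. The list was chosen with earlier results of these data known, so these counts describe it and are no test. Avp, the vasopressin precursor gene, measured 3293 ± 1198 CPM in Dehydrated and 934 ± 597 CPM in Control libraries (SD, n = 10 each), with a log2 fold change of 1.81 (SE 0.37, adjusted p = 0.0388), and without Control M01 of 1.84 with an adjusted p of 0.0879. Pdyn, the dynorphin precursor gene, rose by 1.13 on the log2 scale (SE 0.18, adjusted p = 0.00369), and Pcsk1, a prohormone convertase gene, rose by 1.39 on the log2 scale (SE 0.23, adjusted p = 0.00369); without Control M01 the values were 1.14 and 1.29, each with an adjusted p of 0.00764. Oxt, the oxytocin precursor gene, had -0.07 (SE 0.35, adjusted p = 0.972), and 0.10 (adjusted p = 0.998) without Control M01. The lowest value of the 14 was that of Adm, the adrenomedullin gene, at -0.68 (SE 0.25, adjusted p = 0.646). Adm was at a low level, 1.26 ± 0.53 CPM in Dehydrated and 2.09 ± 1.15 CPM in Control libraries. The 95% interval of every member stayed within -1 and 1 on the same scale. All of these values are for the RNA of whole punches. The difference in response between cargo and members was not tested.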

How the data were processed

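RNA-seq of 29 supraoptic nucleus libraries was analysed from the deposited tables. The deposited values are counts: per the file header, the authors ran featureCounts 1.6.2 on read pairs with Ensembl gene models of mJacJac1 and set no strand option. Reads of overlapping or antisense neighbours can therefore not be told apart, and genes with close copies, such as the Arf genes, are uncertain. The submitters' processing notes also name FastQC and DESeq2. The authors' deposited tables give, for 17583 genes, a p-value and an adjusted p-value beside each log2 fold change. Column names in the count table carry the word Rsubread; the alignment step and the authors' model are otherwise not given in the sources used here. Their 56 columns of values per library and the mean signal per gene were not used here.

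The authors' tables named 9699 genes. Another 5594 were named from RefSeq where the spans overlapped by 0.5 or more each way; of 8787 genes with 2 names, 96.6% had equal ones. Libraries are taken as separate animals because the labels number them within a group; p-values measure the spread between libraries. Sex is that of the labels; the letter in the name of some libraries differs from it.

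edgeR 4.0.16 (R 4.3.3) tested the counts: filterByExpr kept 17558 genes, removing 11612 with 0.126% of counts; TMM scaling; a robust quasi-likelihood model of group and sex over all libraries with 25 residual degrees of freedom; Benjamini-Hochberg adjustment over all genes at 0.05. Standard errors were log2 fold changes divided by the square root of F, and intervals of 95% used 25 degrees of freedom. CPM used TMM-scaled totals; paralog ratios used CPM plus 0.5 and exact permutation of libraries. On simulated counts of 17427 genes for Dehydrated against Control, 62% of 100 genes changed by 0.5 (log2) and 97% of 100 changed by 1 were recovered, with 6 false calls.

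Alternatives were DESeq2 1.42.0, RLE scaling, no filter, no sex term, the letter of the library name in place of the sex label, only the compared groups, a replicate block, each library left out, and, chosen after seeing the data, DESeq2 without Control M01. The members and lists were chosen with earlier results of these data known. Genes named in the text were the 8 members with the smallest p in each treatment comparison, the 3 smallest in Male against Female, the 5 highest and 5 lowest by level per length, the paralog pair with the smallest p, and other listed genes past 0.05 or with the smallest p; Oxt, Adm, Sar1a and Sar1b were named after their values were seen, and further members are named to describe their role group. Comparisons of exon length were chosen after the values were seen. Promoter motifs and protein sequences were not analysed here.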

Additional observations from a re-analysis of the deposited data

Results flagged for a closer look

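Within each group, a value was looked at again when the gap between the most extreme library and its neighbour was large for the group's range (Dixon's ratio at 95%). Chance marks about 1 in 20 groups of libraries, and 19 of 90 were marked here. Control M01 gave 11 of the 19. It was the lowest Control library for Sec24a (12.0 CPM), Copa (142 CPM), Sec31a (63.8 CPM), Sec23a (81.9 CPM) and Arcn1 (110 CPM). It was the highest for Sec62 (296 CPM), Cope (136 CPM), Arf5 (133 CPM) and Kdelr3 (34.3 CPM), and for the log2 ratios of Sec23b to Sec23a (-0.28) and of Sec24b to Sec24a (2.38).

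Rehydrated F05 gave 3, as the highest Rehydrated library for Sec24d (25.5 CPM), for Sec16b (3.99 CPM) and for the log2 ratio of Sec24d to Sec24c (-2.30). Rehydrated M04 gave 2, with the lowest Tmed9 (53.7 CPM) and the highest log2 ratio of Sec24b to Sec24a (1.55) of its group. The other 3 were the log2 ratio of Sec16b to Sec16a in Dehydrated F07 (-7.52, the lowest), that of Sec24d to Sec24c in Control F02 (-3.89, the lowest) and that of Arf5 to Arf1 in Rehydrated F04 (-1.92, the lowest).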

How the results depend on the processing

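No member passed the adjusted threshold in any comparison under any alternative that was run, and the smallest adjusted p over those settings and all 49 genes was 0.315 (Ssr1, DESeq2 without Control M01). Of 2509 values recomputed, 2508 kept their direction or side of the threshold or moved by less than 1 SD between libraries. A small value could thus change sign and still be counted among the 2508. The exception was the median log2 fold change of the members in Rehydrated against Dehydrated, 0.01 with all libraries: leaving out 1 library at a time gave -0.019 (without Rehydrated F05) to 0.020, and the cause was not tested. In Dehydrated against Control that median ran over 0.010 to 0.039, and in Rehydrated against Control over 0.027 to 0.045, when 1 library was left out. Signs of single genes were less steady. The log2 fold change of Sec16b changed sign in 9 of 37 settings in Dehydrated against Control. That of Copg1 did so in 6 of 37 in Rehydrated against Control. In Dehydrated against Control, Sec24a and Copa kept their sign in all 37.

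Replicate numbers gave no visible sign of pairing: same-numbered libraries of 19 pairs had correlations of -0.13 to 0.12 between their deviations, and 1 was over 0.1. A pairing too weak to show in these correlations is not excluded. With a replicate block, 0 members passed in each comparison, and 0, 15 and 7 of all genes passed in Rehydrated against Control, Dehydrated against Control and Rehydrated against Dehydrated. Counts over all genes moved by more than 1.5 times elsewhere too: DESeq2 called 20, 40 and 13 genes in the same 3 comparisons, against 0, 22 and 4 with edgeR, and edgeR on only the compared groups called 0, 11 and 1. Depth limits Sec16b most, at 29.97 counts per library on average.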
